A study of Mus musculus with 3 samples.

Results

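The genes described here are 8 genes associated with nonclassical monocytes, Csf1r, Adgre4, Treml4, Fcgr4, Clec4a3, Fpr2, Tnfaip2 and Tgfbi, read on 3 Affymetrix mouse 430 2.0 arrays of sorted CD8+ T cells. All 8 of 18193 genes were found, by 16 of the 34945 probe sets that the platform annotation assigns to exactly 1 gene symbol. They were named with the values of these arrays in view, as genes far higher on the NK1.1+ array than on the other arrays, so their values are given as a description and carry no test. The question put to them was whether monocytes were in the NK1.1+ fraction.

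FACS-sorted CD8+ T cells of mice aged 15 to 17 days with the genotype Tgfbr2fl/fl x CD4-Cre (KO) were divided by the NK cell surface marker NK1.1 into 2 groups, called here NK1.1+ and NK1.1−. Both are KO cells. The control group was CD8+ T cells of Tgfbr2fl/wt x CD4-Cre littermates, which carry the same Cre and 1 floxed copy of Tgfbr2. One label calls the control cells NK1.1−, and the design text also describes them as total CD8+ cells. Cre under the Cd4 promoter removes Tgfbr2 in developing T cells, including the later CD8+ lineage, and no sort gate other than CD8 and NK1.1 was stated. Each group had 1 array, so no difference has a replicate check and no p-value is given.

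Monocytes are blood phagocytes that depend on the growth factor receptor encoded by Csf1r. The classical kind, marked in mice by high Ly6C and CCR2, enters inflamed tissue, and the nonclassical kind, with low Ly6C and high CX3CR1, patrols the inner wall of vessels. NK1.1 itself is the product of Klrb1c, a lectin-like receptor of NK cells and of some T cells. Effector CD8+ T cells and NK cells share several genes with monocytes, among them Cx3cr1, Zeb2, Itgax and Tyrobp, so these do not separate the lineages.

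The probe set annotated to both Klrb1b and Klrb1c read an intensity of 1618 on the NK1.1+ array, against 52.7 on the NK1.1− array and 7.09 on the control array. The brightest Tgfbr2 probe set read 1808, 1271 and 2634 on the NK1.1+, NK1.1− and control arrays, and since it may lie outside the deleted part it checks nothing. Of 14 T cell receptor complex and CD8 lineage genes, all 14 were measured on each of the 3 arrays. Technical controls differed between the arrays, not all in one direction. The 3′ to 5′ ratio of Actb was 81.9 on the NK1.1+ array, against 12.3 on the NK1.1− array and 6.02 on the control array. The same ratio of Gapdh was lowest on the NK1.1+ array, at 10.8, against 26.7 on the NK1.1− array and 17.8 on the control array. The median hybridisation control read 3106 on the NK1.1+ array, against 1043 and 1283. The part of these differences in the values below was not tested. With bulk RNA, fewer cells of a type and less RNA per cell cannot be told apart.

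All 8 genes were higher on the NK1.1+ array than on either other array, by factors from at least 40.8 (Fcgr4) to 251 (Csf1r) against control and from at least 40.8 (Fcgr4) to 141 (Csf1r) against NK1.1−. An intensity of 9.46 or more was taken as measured; this level is the 95th percentile of 139 probe sets of genes such as olfactory receptors and lens crystallins. Lower values were raised to this level, so a fold against one of them is a lower bound. A log2 difference of 0 can mean that both values lay below the level. A gene was called at a difference of 2-fold, which over all measured genes gave 9.83% higher in NK1.1+ than in control and 6.53% higher than in NK1.1−, with 22.7% and 21.2% lower. The members were chosen by these contrasts, so nothing is read from 8 of 8. The median log2 difference of the 8 was 6.10 against control and 5.77 against NK1.1−, beside -0.17 and -0.24 over all measured genes. The 8 genes held ranks 2 (Csf1r) to 28 (Fcgr4) of 10726 by log2 difference from control, and 2 to 14 of 10712 by that from NK1.1−.

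Csf1r encodes the receptor tyrosine kinase for CSF1 and interleukin-34 on which monocytes and macrophages depend. Its brightest probe set read 7666 on the NK1.1+ array, 54.5 on the NK1.1− array and 30.5 on the control array. The NK1.1+ array was far above both others, which were themselves above the level of 9.46. A second Csf1r probe set read 892 on the NK1.1+ array, 7.71 on the NK1.1− array and 7.66 on the control array, at least 94.3-fold higher than control. The third read 35.6, 5.70 and 5.33 in the same order of arrays, at least 3.77-fold higher than control. The 3 probe sets had the same direction and differed widely in size.

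Adgre4 encodes EMR4, an adhesion G protein-coupled receptor of mononuclear phagocytes. It read 1685 on the NK1.1+ array, 12.9 on the NK1.1− array and 11.1 on the control array, 152-fold above control and 131-fold above NK1.1−. Its other probe set read 21.8 on the NK1.1+ array, against 5.19 and 5.18 on the NK1.1− and control arrays, at least 2.30-fold higher. Both lay highest on the NK1.1+ array.

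Treml4 encodes a TREM-like surface receptor of nonclassical monocytes and some dendritic cells and macrophages. It read 516 on the NK1.1+ array, 5.06 on the NK1.1− array and 5.33 on the control array, at least 54.5-fold higher than either. Fcgr4 encodes an activating receptor for the Fc part of IgG, which in mouse blood is characteristic of nonclassical monocytes. It read 386 on the NK1.1+ array, 5.63 on the NK1.1− array and 5.59 on the control array. Clec4a3 encodes a C-type lectin receptor of the family of the dendritic cell immunoreceptor. It read 505 on the NK1.1+ array, 6.90 on the NK1.1− array and 6.56 on the control array, at least 53.4-fold higher than either. Treml4, Fcgr4 and Clec4a3 had 1 probe set each and were measured on the NK1.1+ array alone.

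Fpr2 encodes a G protein-coupled receptor for formylated bacterial peptides and other ligands that guides phagocytes. It read 830 on the NK1.1+ array, 14.5 on the NK1.1− array and 9.86 on the control array, 84.2-fold above control. The control value was just above the level. Tnfaip2 encodes M-Sec, a cytosolic protein induced by tumour necrosis factor that takes part in membrane nanotube formation. One probe set read 551 on the NK1.1+ array, 10.1 on the NK1.1− array and 9.36 on the control array, at least 58.2-fold above control. The other 2 Tnfaip2 probe sets were below the level on all 3 arrays, at most 6.69, so the gene rests on 1 probe set. That probe set carries the suffix x, which marks probes that may bind other transcripts.

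Tgfbi encodes a secreted matrix protein made by macrophages and named for its induction by TGF-β. Its brightest probe set read 762 on the NK1.1+ array, 15.4 on the NK1.1− array and 7.19 on the control array, at least 80.5-fold above control. Other Tgfbi probe sets read 378, 11.97 and 10.9 and 291, 8.03 and 6.31 on the NK1.1+, NK1.1− and control arrays. The one probe set without a suffix read 24.7, 6.57 and 6.07, at least 2.61-fold above control. All 4 probe sets were highest on the NK1.1+ array.

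Of the 16 probe sets of the 8 genes, 14 were higher on the NK1.1+ array than on the control array by 2-fold or more and 0 were lower, beside 8.72% higher and 22.4% lower over all measured probe sets. Against NK1.1−, 14 of 16 were also higher and 0 lower, beside 6.3% higher and 20.4% lower over all probe sets. Only 6 of the 16 were measured on the NK1.1− or the control array, and the others could not differ there. Of these 6, 0 differed by 2-fold between NK1.1− and control, beside 6.87% higher and 5.87% lower over all measured probe sets. The 2 probe sets not called higher were the dim ones of Tnfaip2. Of the 16, 14 were measured on the NK1.1+ array, 6 on the NK1.1− array and 4 on the control array. No probe set that the annotation gives several symbols named any of the 8 genes.

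**Figure D1:**
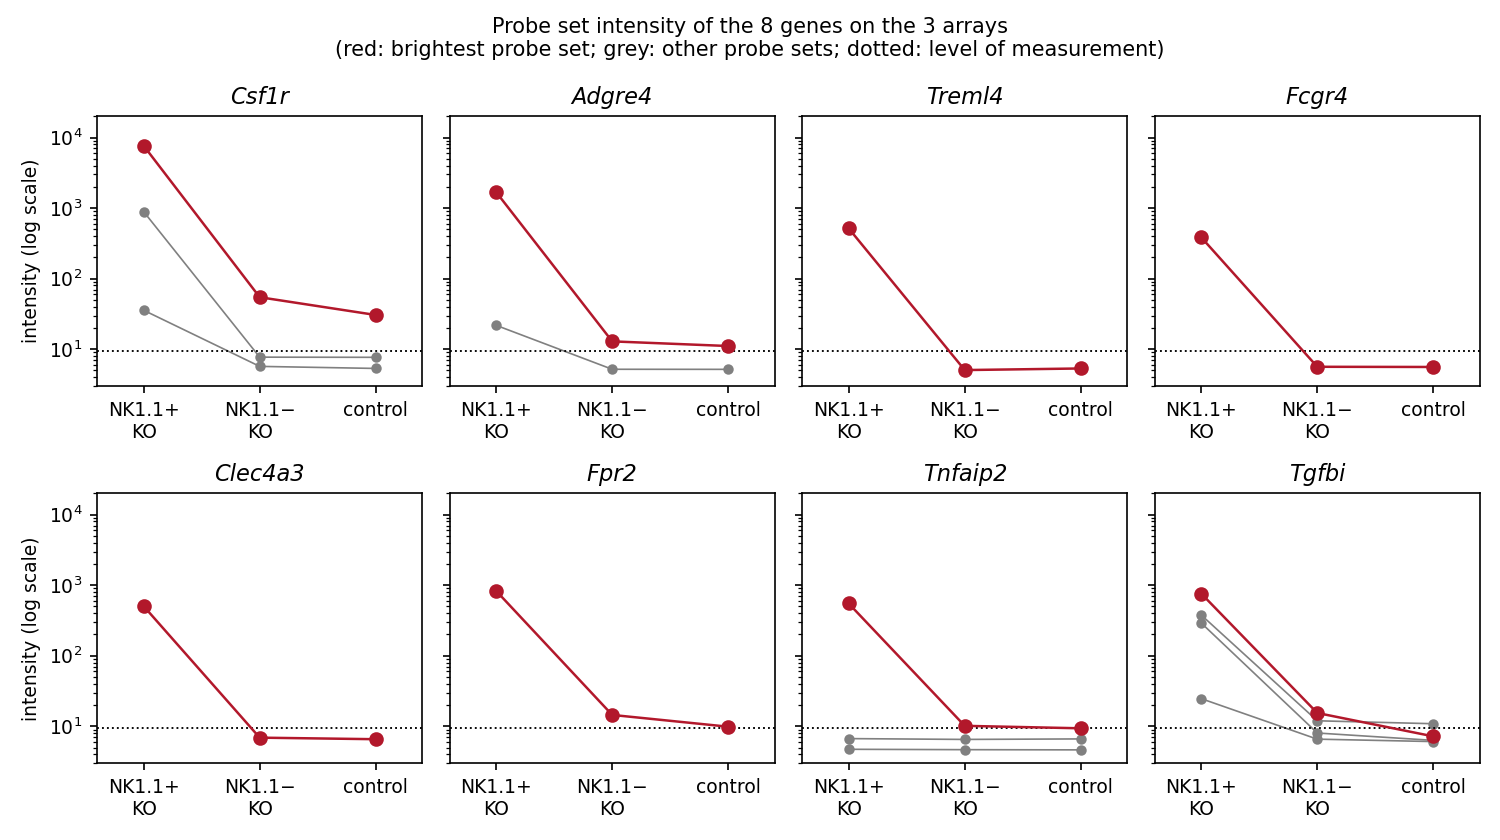
Intensity on a log scale (vertical) of every probe set of the 8 genes on the NK1.1+, NK1.1− and control arrays (horizontal), with the brightest probe set of each gene in red, others in grey, the level of 9.46 dotted, and lines joining the values of a probe set. The red points lie between 386 and 7666 on the NK1.1+ array and at or below 54.5 on the other arrays, and 2 grey Tnfaip2 probe sets lie below the level throughout.

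Set against the control array, the NK1.1− array held 0 of the 8 genes at a 2-fold difference, where 8.01% of measured genes were higher and 5.52% lower. Only 5 of the 8 were measured on the NK1.1− array. The log2 differences of the 8 ranged from 0.00 to 0.84 with a median of 0.16, beside 0.011 over all measured genes. The median of the 8 counts genes below the level on both arrays as 0.00, whereas the 0.011 leaves such genes out. The difference was 0.84 for Csf1r, 0.71 for Tgfbi, which was below the level on the control array, 0.55 for Fpr2 and 0.22 for Adgre4. Treml4, Fcgr4 and Clec4a3 were below the level on both arrays, so that no difference can be read. Without a level, Tgfbi was 2.15-fold higher in NK1.1− than in control, and 7 of the 8 genes had a higher value in NK1.1− cells, as had 5243 of 10132 measured genes. With arrays scaled to the hybridisation controls, the log2 difference of Csf1r was 1.14, past 2-fold.

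**Figure D2:**
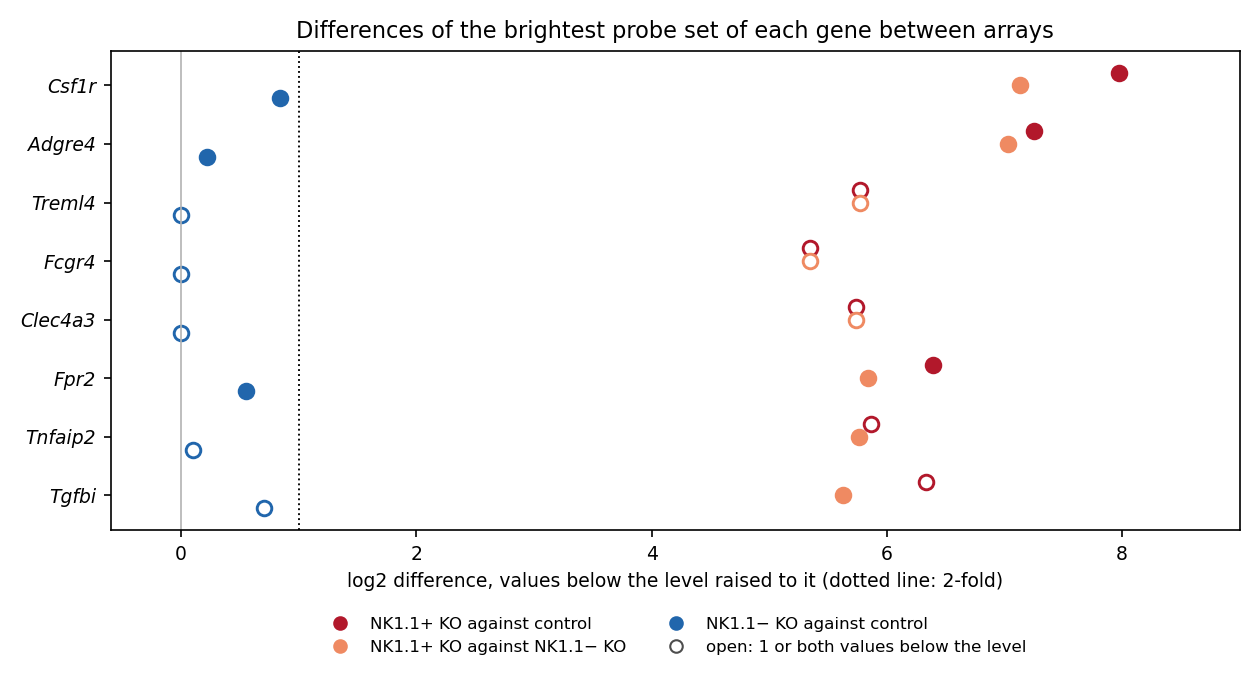
Log2 difference (horizontal) of the brightest probe set of each gene (rows) for NK1.1+ against control, NK1.1+ against NK1.1−, and NK1.1− against control, with values below the level raised to it and open points where 1 or both values were below it. The differences of the NK1.1+ array lie between 5.35 and 7.97, and those of NK1.1− against control between 0.00 and 0.84, left of the dotted 2-fold line.

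**Figure D3:**
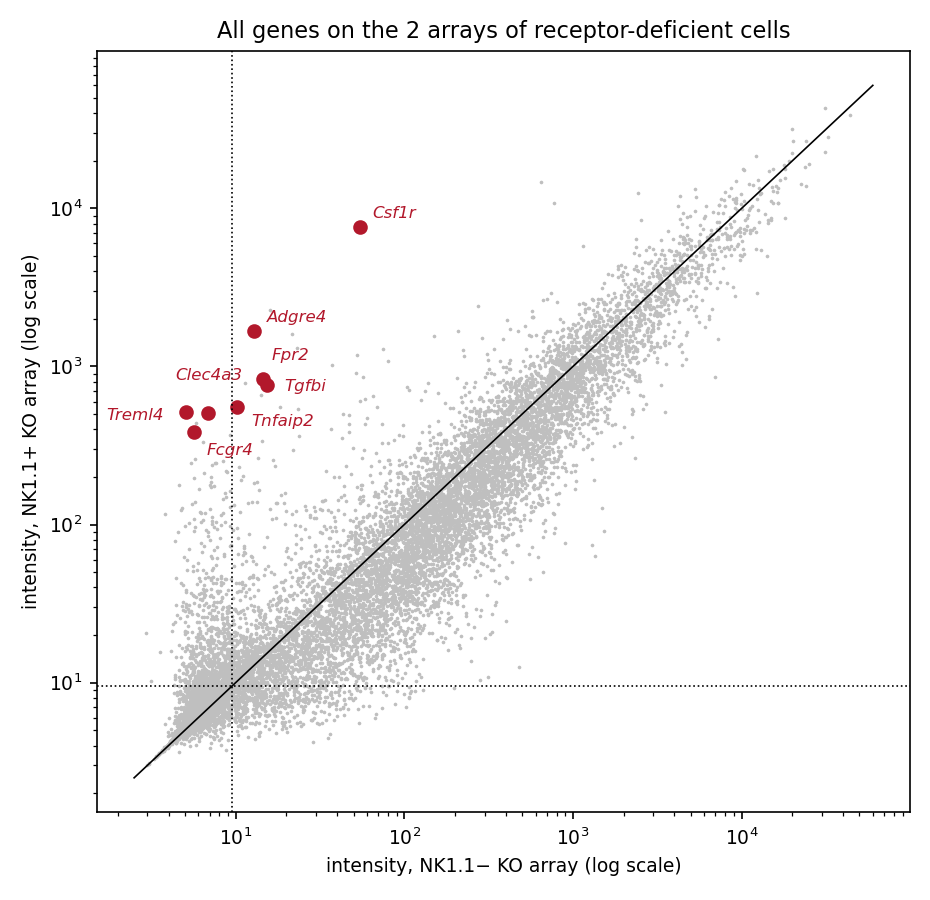
Intensity of all 18193 genes on the NK1.1+ array (vertical) and the NK1.1− array (horizontal), both on log scales, with the 8 genes in red, the line of equal values solid and the level of 9.46 dotted. The 8 genes lie far above the line of equal values, at 386 to 7666 on the vertical axis.

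The sequence before the start of transcription is shown for the 2 genes whose window holds the letters GAGGAAGT on either strand. This is a core of sites for PU.1, the Ets family factor needed for the myeloid lineage and for Csf1r transcription. Windows of 250 bases before to 50 after the start, from RefSeq on GRCm38.p6, were searched for 7 of the 8 genes, 8 windows in all, and Csf1r was not searched. The letters stood in 2 of these 8 and in 3.2% of 32851 windows of all genes. The windows of Fcgr4 (chr1:171018676-171018975, plus strand) and Adgre4 (chr17:55749734-55750033, plus strand) are printed 5′ to 3′, with the match, which lies on the opposite strand, in capitals.
Fcgr4: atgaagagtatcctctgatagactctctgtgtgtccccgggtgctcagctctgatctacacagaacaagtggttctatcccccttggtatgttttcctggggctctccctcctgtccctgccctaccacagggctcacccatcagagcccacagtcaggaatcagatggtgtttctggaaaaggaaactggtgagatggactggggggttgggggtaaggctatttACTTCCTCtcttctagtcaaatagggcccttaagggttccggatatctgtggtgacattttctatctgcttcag
Adgre4: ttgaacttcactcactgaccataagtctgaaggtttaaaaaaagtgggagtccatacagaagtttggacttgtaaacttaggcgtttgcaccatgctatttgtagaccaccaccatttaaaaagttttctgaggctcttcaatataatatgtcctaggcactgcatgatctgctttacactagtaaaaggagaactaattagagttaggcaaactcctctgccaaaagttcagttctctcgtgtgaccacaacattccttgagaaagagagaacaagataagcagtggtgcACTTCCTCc
The match spans bases -24 to -17 in the Fcgr4 window, before the start (base 1 is the first transcribed base and base -1 the one before it). In the Adgre4 window it spans bases 42 to 49, after the start. The Adgre4 window also held the C/EBP letters TTNNGCAA at bases -46 to -39, apart from the PU.1 letters, and it was the only 1 of the 8 windows to do so, with 10.8% of all windows holding them. The NR4A letters AAAGGTCA, the composite element of PU.1 and IRF factors and the KLF letters CCACACCC were searched on both strands and stood in 0 of the 8 windows, with 1.51%, 2.72% and 3.56% of all windows. The composite shares its first letters with the middle of the PU.1 letters. These matches are a description of letters and show no binding.

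Relatives of the 8 genes were not uniformly high on the NK1.1+ array. Scaled values of relatives and lists keep the probe set of each gene. Fcer1g, the signalling chain that Fcgr4 needs and that NK cells also use, read 261 on the NK1.1+ array, against 5.76 on the NK1.1− array and 6.17 on the control array. Fcgr2b, the inhibitory receptor, read 125 on the NK1.1+ array, 15.999 on the NK1.1− array and 7.26 on the control array by its brightest probe set, while at least 1 other of its 5 probe sets had a log2 difference of 0. Fcgr3, the low-affinity activating receptor that NK cells carry, read 151, 57.2 and 44.4 in the same order and was 3.40-fold above control. Fcgr1, the high-affinity receptor of classical monocytes and macrophages, read 13.3, 6.26 and 6.64 and was not called. Fcgrt, the neonatal Fc receptor gene, read 62.3, 62.3 and 40.0 and was not called.

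Among the Clec4 lectins, 3 of 4 measured genes were called higher in NK1.1+ than in control cells, and 2 of 2 after scaling to the hybridisation controls. Clec4n, encoding dectin-2, was at least 26.6-fold, Clec4a2, encoding another receptor of the same family as Clec4a3, at least 14.1-fold and Clec4e, encoding Mincle, at least 2.43-fold higher. With arrays scaled to the hybridisation controls, Clec4e was below the level on the NK1.1+ and control arrays and was not called. Clec4b1 read 10.2, 9.17 and 9.04 on the NK1.1+, NK1.1− and control arrays and was not called. The other Clec4a2 probe set had a log2 difference of 0. Clec4d and Clec4g were below the level on all 3 arrays.

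Among TREM and paired receptors, Trem3 was at least 6.45-fold, Pilra at least 5.77-fold and Trem1 at least 2.80-fold higher in NK1.1+ than in control cells. The other Trem1 probe set had a log2 difference of 0. Trem2, Treml1 and Cd300ld were below the level on all 3 arrays. Treml2 ran the other way, at 12.1 on the NK1.1+ array, 28.2 on the NK1.1− array and 229 on the control array. At least 1 of its 4 probe sets had a log2 difference of 0.

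Adgre1, which encodes the macrophage marker F4/80, read 66.6 on the NK1.1+ array, 11.2 on the NK1.1− array and 9.85 on the control array. Adgre5, encoding CD97 of many leukocytes, was 2.30-fold lower in NK1.1+ than in control, and its log2 difference was 0.17 with arrays scaled to housekeeping genes. Of growth factor receptor kinases related to Csf1r, Flt3, Pdgfra, Pdgfrb and Kdr were below the level on all 3 arrays, and Kit read 15.5, 12.9 and 19.8. The formyl peptide receptor genes Fpr-rs3 and Fpr-rs4 and the fasciclin domain genes Postn, Stab1 and Stab2 were below the level on every array. Of genes named with Tnfaip2 or related to the exocyst, 0 of 5 measured were called higher than control, and Exoc3 was 2.04-fold lower by its brightest probe set, and the same probe set had a log2 difference of 0.34 after scaling to housekeeping genes. Its other probe set had a log2 difference of 0.29. Tnfaip3, encoding the inhibitor A20, read 993, 978 and 721, and Tnfaip1, Tnfaip8 and Tnfaip8l2 had log2 differences from control of 0.61, -0.88 and -0.82, whose signs turned to -0.67 with hybridisation scaling for Tnfaip1, and to 0.48 and 0.54 with housekeeping scaling for Tnfaip8 and Tnfaip8l2. Tnfaip6 and Exoc3l were below the level.

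Genes that lie next to the 8 in the genome were compared by RefSeq order alone. Of 16 neighbours, 12 had a single-symbol probe set and 8 were measured in NK1.1+ or control cells. Of these 8, 3 were higher in NK1.1+ than in control cells, Trem3, Fcgr2b and Fcgr3, all relatives of the gene beside them, and 2 were lower, Treml2 and Smad5. Csf1r lies between Pdgfrb, which was below the level throughout, and Hmgxb3, which read 86.9, 50.7 and 74.2 on the NK1.1+, NK1.1− and control arrays. Neither neighbour of Adgre4, Pot1b or Zfp119a, differed from control by more than 0.11 on the log2 scale.

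Of genes for CSF1 receptor signalling and Csf1r transcription, 10 of 21 measured were called higher in NK1.1+ than in control cells and 3 lower (median log2 difference 0.82). With arrays scaled to the hybridisation controls the count was 4 higher and 7 lower of 20, and the median was -0.31. Over all measured genes that scaling gave 3.04% higher and 66.3% lower than control (median -1.40). These shares stand beside every count against control below that uses this scaling. Gab2, an adaptor, read 698 on the NK1.1+ array, 132 on the NK1.1− array and 6.53 on the control array, with at least 1 of its 3 probe sets having a log2 difference of 0. Fgr, a Src family kinase of myeloid cells, was 21.6-fold higher than control by 1 probe set, with a log2 difference of 0.23 by the other. Pik3ap1, an adaptor for phosphoinositide 3-kinase, was 18.1-fold higher, with a log2 difference of 0 by its other probe set. Pik3cd, a catalytic subunit of that kinase, was 6.19-fold lower. Another Pik3cd probe set had a log2 difference of 0.46. The following genes were chosen after their values were seen, for their roles. Spi1, which encodes PU.1, read 16.7 on the NK1.1+ array, 9.59 on the NK1.1− array and 8.74 on the control array, below a 2-fold difference. Cebpa and the ligand gene Il34 were below the level on all 3 arrays. Csf1, encoding the other ligand, read 35.7, 23.0 and 8.13 on the NK1.1+, NK1.1− and control arrays, and at least 1 of its 4 probe sets had a log2 difference of 0.

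Of the other nonclassical monocyte genes, 13 of 21 measured were called higher in NK1.1+ than in control cells and 1 lower (median log2 difference 1.90), and 10 of 20 higher and 3 lower after scaling to the hybridisation controls. The summed intensity of the 22 genes on the array was 15447 on the NK1.1+ array, 10065 on the NK1.1− array and 5953 on the control array. Most of each sum came from Spn, at 6932, 6571 and 3862, and Itgal, at 2830, 2098 and 1454, genes of many leukocytes that were not called. Of the 22, 16 were measured on the NK1.1− array and 14 on the control array. Cx3cr1, the fractalkine receptor of nonclassical monocytes and of effector lymphocytes, read 2049, 568 and 14.5 in the same order. Its other probe set had a log2 difference from control of 0. Klf4, a transcription factor that monocytes need, read 1301, 23.3 and 15.2. Zeb2, a transcription factor of monocytes and effector T cells, read 627, 58.8 and 7.38. Lst1 was 14.3-fold above control. Klf4 was thus low in NK1.1− cells, while Cx3cr1 and Zeb2 were also called higher there than in control.

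Several genes of that list did not follow the 8. Named after their values were seen, Pou2f2, a factor of nonclassical monocytes, read 12.1 on the NK1.1+ array, against 7.24 on the NK1.1− array and 7.17 on the control array, and was not called. Eno3 was 2.598-fold lower in NK1.1+ than in control. Nr4a1, which nonclassical monocytes require and activated T cells induce, read 134 on the NK1.1+ array, 60.8 on the NK1.1− array and 213 on the control array. Ace and Cebpb, also named for their roles, were at least 4.98-fold and 6.18-fold above control. At least 1 other probe set of each had a log2 difference of 0. Against NK1.1− cells, 13 of 21 measured genes of the list were higher and 1 lower (median log2 difference 1.34). After scaling to the hybridisation controls the median was -0.13, with 4 higher and 5 lower of 20. Over all measured genes that scaling gave 1.399% higher and 70.8% lower than NK1.1− (median -1.63). These shares stand beside the later counts against NK1.1− that use this scaling.

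Relative to control, the NK1.1+ array was higher for classical monocyte genes in 5 of 9 measured and lower for 0 (median log2 difference 2.30). After scaling to the hybridisation controls 5 of 8 were higher and 0 lower (median 1.30). Against NK1.1−, 4 of 8 were higher and 0 lower (median 1.24), and 3 higher and 1 lower of 9 after that scaling (median -0.017). Summed intensities of the classical monocyte genes were 1923 in NK1.1+, 979 in NK1.1− and 342 in control. Of the 6 defining genes of this list, Vcan and Fn1 were below the level on the NK1.1+ array. F13a1 read 10.2 there, 11.4 in NK1.1− and 15.2 in control. Chil3 read 369, 92.9 and 35.02, and Mgst1 read 198, 5.64 and 5.03, with at least 1 other Mgst1 probe set having a log2 difference of 0. Sirpa was at least 12.5-fold (another of its 3 probe sets had a log2 difference of 0) and Hp at least 7.27-fold higher than control. Ccr2, which effector T cells also use, read 1114 on the NK1.1+ array, 815 on the NK1.1− array and 226 on the control array.

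Relative to control, the NK1.1+ array was higher for pan-monocyte genes in 19 of 30 measured and lower for 0 (median log2 difference 1.66), and higher for 14 and lower for 6 of 26 after scaling to the hybridisation controls. Their summed intensity was 18241 in NK1.1+, 9734 in NK1.1− and 11288 in control cells. The largest part of each sum was Ctss, encoding cathepsin S, at 9587, 5289 and 7511, which was not called. Tyrobp, encoding the adaptor DAP12, read 1183, 52.6 and 21.6 on the NK1.1+, NK1.1− and control arrays. Mpeg1, encoding the pore-forming protein perforin-2 of phagocytes, was 25.04-fold and Cd300lf 24.6-fold higher than control. Lyz2, encoding lysozyme, read 541 on the NK1.1+ array, against 23.4 in NK1.1− and 23.7 in control. Other genes of the marker lists, also named after their values were seen, were not called against control. Their log2 differences from control were 0 for Itgam, 0.28 for Aif1, 0.73 for Csf2ra and -0.18 for Ncf1. Of the 8 defining genes of the pan-monocyte list, Cd14, the lipopolysaccharide coreceptor, and Ms4a7 were below the level on all 3 arrays. Against NK1.1−, 16 of 30 were higher and 0 lower, and after the same scaling 12 higher and 9 lower of 27.

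Relative to control, the NK1.1+ array was higher for tissue macrophage genes in 7 of 9 measured, and in 3 of 8 after scaling to the hybridisation controls. Against NK1.1− it was higher in 7 of 10, and in 2 of 10 after that scaling. Summed intensities were 857 in NK1.1+, 167 in NK1.1− and 142 in control. Of the 18 genes on the array, 9 were measured in NK1.1+ cells, and of the 7 defining genes C1qa, Timd4 and Vsig4 were below the level. Slc40a1, the iron exporter, was 22.7-fold, C1qb, a complement subunit, at least 17.2-fold by its brightest probe set (at least 1 of the others had a log2 difference of 0) and Cd5l at least 4.73-fold higher than control. C1qc read 10.4 on the NK1.1+ array, against 4.65 and 4.39 on the NK1.1− and control arrays.

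Relative to control, the NK1.1+ array was higher for neutrophil genes in 2 of 8 measured and lower for 0 (median log2 difference 0.065), and higher for 0 and lower for 3 of 7 after scaling to the hybridisation controls (median -0.079). The 2 were S100a8, at 236 on the NK1.1+ array, 121 on the NK1.1− array and 97.9 on the control array, and S100a9, at 67.6, 34.9 and 27.8. With scaling to the hybridisation controls, the difference of S100a8 from control was -0.0064. Summed intensities were 539, 325 and 385 in the same order of arrays. Of the 6 defining genes of this list, Cxcr2 was below the level on the NK1.1+ array.

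Of dendritic cell genes, 4 of 9 measured were called higher in NK1.1+ than in control cells and 2 lower, and 1 higher and 3 lower after scaling to the hybridisation controls. Summed intensities were 2150 in NK1.1+, 626 in NK1.1− and 1053 in control. Of the 5 defining genes of this list, Flt3, Xcr1, Cd209a and Siglech were below the level on all 3 arrays. The class II gene H2-Aa read 1517 in NK1.1+, 289 in NK1.1− and 325 in control. B and plasma cell genes were higher for 4 of 12 and lower for 2. The count was 2 higher and 5 lower of 11 with hybridisation scaling. With housekeeping scaling it was 6 higher and 0 lower of 12, where 41.6% of all measured genes were higher. Summed intensities were 4926, 1407 and 1082 in the same order. Jchain, which joins secreted immunoglobulins, read 2282, 15.97 and 15.93. Of the 5 defining genes of this list, Cd79a and Pax5 were below the level on the NK1.1+ array. In all, 11 of its 15 genes were measured there. Of mast cell, basophil and eosinophil genes 1 of 3 measured was higher, Cma1 at least 2.36-fold, and of platelet genes 0 of 1. With hybridisation scaling, Cma1 was below the level. Of the 6 defining genes of the first list, Cpa3, Fcer1a, Ms4a2 and Epx were below the level on the NK1.1+ array. So were Pf4, Ppbp and Gp9 of the 4 defining platelet genes.

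Relative to control, NK cell genes were higher on the NK1.1+ array in 10 of 12 measured and lower for 0. With hybridisation scaling 7 were higher and 1 lower. Against NK1.1−, 7 of 12 were higher and 1 lower (median log2 difference 1.27), and 2 higher and 3 lower of 13 after that scaling (median -0.12). NK1.1− cells were themselves higher than control for 8 of 11 and lower for 1 (median 1.65), beside 8.01% higher and 5.52% lower over all measured genes. Of the 3 defining genes of this list, Ncr1, the gene of the NK receptor NKp46, was below the level on all 3 arrays. Klre1, a lectin-like NK receptor, read 1077 in NK1.1+, 80.2 in NK1.1− and 11.7 in control, and Gzma, encoding granzyme A, read 31856, 19886 and 158. T cell receptor complex and CD8 lineage genes were higher in NK1.1+ than in control for 0 and lower for 10 of 14, beside 22.7% lower over all measured genes. After scaling to housekeeping genes 3 were higher and 2 lower (median -0.29). All measured genes were then 41.6% higher and 3.36% lower (median 0.78). With hybridisation scaling 0 were higher and 13 lower of 14, beside 3.04% higher and 66.3% lower over all measured genes. Cd5, a negative regulator of T cell receptor signalling, read 254 in NK1.1+, 785 in NK1.1− and 1815 in control. Cd3e, a chain of the T cell receptor complex that was chosen after its value was seen, read 776 in NK1.1+, 750 in NK1.1− and 701 in control. Its log2 difference from control was 0.15, unlike other chains of the complex, also named after their values were seen. Cd3d, Cd3g and Cd247 had log2 differences from control of -1.62, -1.81 and -1.81. With housekeeping scaling these were -0.26, -0.44 and -0.44, and that of Cd3e was 1.51. Monocyte genes and T cell genes were both measured on the NK1.1+ array. The part of other cells in the signal of the 8 genes, against transcription in the NK1.1+ T cells themselves, was not tested and cannot be read from bulk values.

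**Figure D4:**
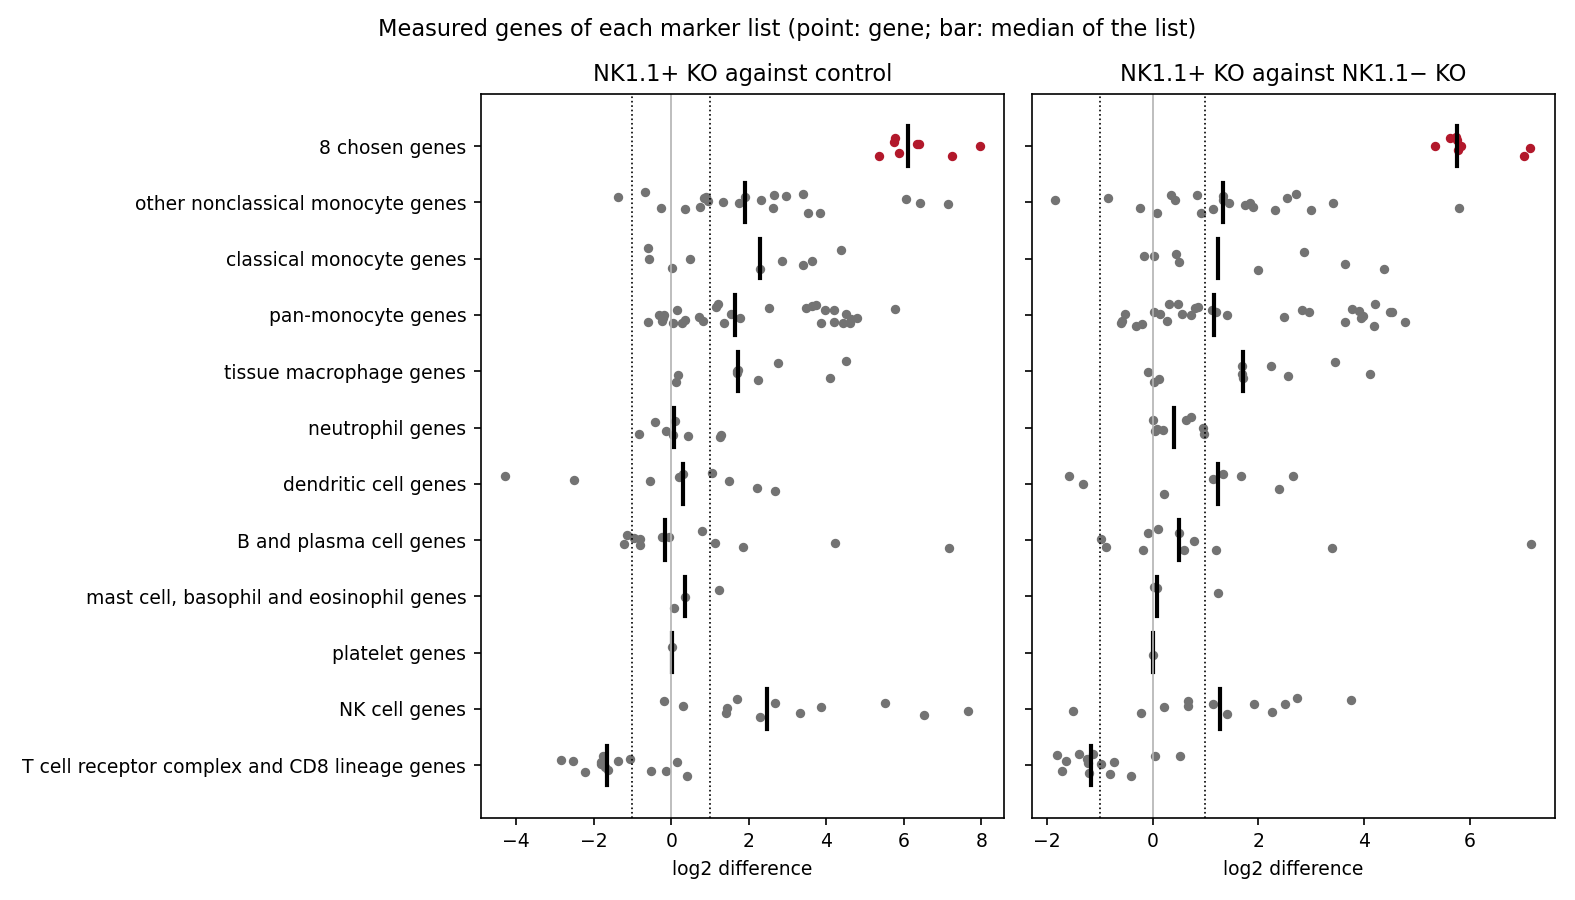
Log2 differences (horizontal) of the measured genes of each marker list (rows) for NK1.1+ against control (left) and against NK1.1− (right), with 1 point per gene, a black bar at the median, dotted lines at 2-fold and the 8 chosen genes in red. Medians against control were 6.10 for the 8 genes, 1.90, 2.30 and 1.66 for other nonclassical, classical and pan-monocyte genes, 0.065 for neutrophil genes and -1.66 for T cell genes.

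The genes whose values over the 3 arrays were most like those of Csf1r, by the root mean square distance of centred log2 values, were Jchain (0.39), Igk (0.60), Klf4 (0.68), Vcam1 (0.76) and Gda (1.01), followed by Tgm2, Ccl6, Alox5ap, Klkb1 and Tyrobp (1.15). Those nearest to the median profile of the 8 genes were Vcam1 (0.13), Klf4 (0.16), Igk (0.20), Gda (0.23) and Tgm2 (0.26), followed by Klkb1, Ccl6, Sirpb1a, Alox5ap and Neo1 (0.54). The 2 sets of 10 shared 8 genes. Likeness over 3 arrays rests on few values and many genes that are high on 1 array alone look alike. Vcam1, an adhesion molecule, read 789 on the NK1.1+ array, 11.4 on the NK1.1− array and 11.3 on the control array. Ccl6, a chemokine of myeloid cells, read 556, 18.2 and 10.6, and Alox5ap, which serves leukotriene synthesis in myeloid cells, read 1014, 37.1 and 19.7. Igk read 1609, 21.6 and 17.4. At least 1 probe set of Igk, Vcam1, Gda, Tgm2 and Neo1 had a log2 difference from control of 0, whereas both Ccl6 probe sets differed by 5.55 or more on the log2 scale.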

How the data were processed

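RNA of 3 sorted CD8+ T cell samples was read on 1 array each. The deposited values are probe set intensities on a linear scale, from 2.60 to 55468 outside control probe sets, made by the authors with GCRMA 1.1.3, per the submitters' processing notes. No GCRMA setting was stated. Groups were taken from the sample titles, and 0 columns were left unmapped. Of 45037 probe sets other than controls, 34945 had 1 gene symbol in GEO's platform annotation, 932 several and 9160 none. Each gene was read from the brightest of its single-symbol probe sets, by the mean of the 3 arrays. Log2 was taken, values below 9.46 were raised to it, and differences of 1 or more were called.

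The named genes were the 8 members, list genes with the 4 largest differences from control per list, defining markers below the level, relatives of the members and the 10 nearest profiles. Ccr2, F13a1, Lyz2, C1qc and the genomic neighbours were named outside this rule, after their values were seen, as were the genes so marked in the results. The 20 lists held 251 genes, of which 224 matched. The members and lists were chosen with earlier results of these data known. The calls were tried on simulated data, with folds added only to genes brighter on the control array than any of the 8. The simulation therefore says nothing of calls near the level. Level, offset, normalization, probe set choice and threshold were varied. Promoter windows came from RefSeq on GRCm38.p6. Python 3.11.15, numpy 2.4.6, pandas 2.3.3 and matplotlib 3.10.9 were used. With 1 array per group, the number of arrays limits the precision.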

Additional observations from a re-analysis of the deposited data

How the results depend on the processing

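All 8 genes stood 2-fold or more above control and NK1.1− on the NK1.1+ array under each of the 10 alternatives, except Tnfaip2, which had a log2 difference of 0.00 with the median of all probe sets and with probe sets without a suffix. The median log2 difference of the 8 from control was 3.58 with the level raised to the 75th percentile (54.0), 4.11 with an offset of 32, 4.80 with scaling to the hybridisation controls and 5.42 when the probe sets of a gene were averaged, against 6.10 as reported. From NK1.1− it was 3.58 with that level, 3.98 with that offset, 4.35 with scaling to the hybridisation controls and 6.38 with scaling to housekeeping genes, against 5.77 as reported. Between NK1.1− and control, 1 gene reached 2-fold without a level (Tgfbi) and 1 with scaling to the hybridisation controls (Csf1r), against 0 as reported. Scaling to the hybridisation controls shifted the median of all genes in NK1.1+ against control by -1.23, and scaling to housekeeping genes by 0.94; the share of genes higher was then 3.04% and 41.6%, and lower 66.3% and 3.36%. Where alternatives moved a value, the cause was not tested. No paired analysis was possible because each group has 1 array, and leaving out a replicate was not possible. Genes below the level give bounds only. Holding the probe set of each gene under the other scalings was an alternative chosen after seeing the data; under housekeeping scaling it gave 3 higher T cell genes, against 4 when the probe set could change.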
